A study of Homo sapiens with 20 samples.

Results

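Long noncoding RNAs (lncRNAs) lost under epidermal growth factor (EGF) were followed in MDA-MB-468 cells, an established triple negative breast cancer line of epithelial origin. A gene was included when the deposited annotation listed it as a lncRNA, when its mean in the untreated control was at least 0.5 CPM (the count divided by the library total, times 1000000), and when its means after 12, 24 and 72 h of EGF-treatment were each at most 0.6 times the control mean. Of 16846 lncRNA genes listed, 1790 reached the control floor, and 339 of these (18.9%) met the rule. The opposite rule, at least 1.67 times the control mean at the same 3 times, was met by 43 lncRNAs (2.4%). Among 12665 protein-coding genes at the floor, 1156 (9.13%) met the rule for loss and 594 (4.69%) the opposite one. The floor was set on the control mean alone, so genes low in the control and raised by EGF could not be counted. The shares for loss and for the opposite rule are therefore not measured on equal terms. The 339 lncRNAs were thus selected on their measured levels in the controls and at 12, 24 and 72 h, which are given as a description, without tests.

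All cells were serum-starved, and the EGF groups then received EGF at 50 ng/mL, with harvest after 12, 24, 48 or 72 h, a treatment used to induce the epithelial-mesenchymal transition (EMT) in this line. Each of the 5 groups had 4 biological replicates, 20 libraries in all, seeded and harvested together. All libraries came from a single cell line in culture, so they describe that line only. Total counts were between 15611961 and 25856953 per library. The epithelial markers EPCAM, KRT8, KRT18 and CDH1 and the EGF receptor EGFR were detected in all libraries, and of the receptors that define the triple negative class PGR had no count in any library, whereas ESR1 had 1.71 to 6.91 CPM and ERBB2 6.72 to 26.4 CPM. The leukocyte marker PTPRC reached at most 0.332 CPM and the fibroblast collagen COL1A2 at most 0.0583 CPM. The summed level of 5 markers of leukocytes, endothelium and fibroblasts was 7.38 to 10.8 CPM in the controls, 8.14 to 9.59 after 12 h, 11.6 to 15.9 (24 h), 15.8 to 18.7 (48 h) and 16.6 to 18.9 (72 h). Most of it came from COL1A1 and PECAM1, and its part in the results was not tested.

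LncRNAs are transcripts without a long protein-coding reading frame, many of them spliced and polyadenylated like mRNA. Some act where they are made, on the gene next to them, and others act as scaffolds or decoys elsewhere in the cell, or are hosts whose introns are processed to microRNAs. A large share starts at the promoter of a protein-coding gene and runs in the opposite direction (divergent transcripts) or lies across such a gene on the other strand (antisense transcripts). Many lncRNAs are unstable and are trimmed in the nucleus by the RNA exosome, so their level reflects both synthesis and decay.

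Positions were found in GENCODE 29 (GRCh38) for 311 of the 339 genes, on 23 chromosomes. Of these, 136 (43.7%) overlapped a protein-coding gene on the opposite strand, 36 (11.6%) started divergently within 1 kb of one, 30 (9.65%) overlapped one on the same strand and 109 (35%) lay apart. The other 1451 lncRNAs at the floor were spread in much the same way, with 43.7% antisense, 9.84% divergent, 12.7% on the same strand and 33.8% apart. The median exonic length was 1797 bases against 2258, and the median number of merged exons was 3 in both. Clone-based symbols were carried by 196 of the 339 (57.8%), 54 had an antisense symbol, 50 a LINC symbol and 16 a divergent transcript symbol (-DT). The deposited annotation calls C5orf38 and MIR1915HG lncRNAs, whereas GENCODE 29 lists them, and 1 further member, as protein-coding. How the counting treated strand is not given in the sources used here, and for 135 members part of the exons overlaps exons of another gene on the opposite strand, by more than 50% of the bases in 18. For such pairs, reads of the lncRNA and of its partner may not be separable.

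As a group, the lncRNAs were lowest at 12 h and stood highest among the EGF-treatments at 48 h. Their summed level was 1472, 1327, 1395 and 1390 CPM in the 4 controls. It was 352, 355, 349 and 355 CPM at 12 h, and 595, 506, 470 and 481 CPM at 24 h. At 48 h it was 957, 962, 924 and 962 CPM, and at 72 h 515, 528, 563 and 557 CPM. No EGF library reached the lowest control, and the 48 h libraries lay above every library of the other EGF-treatments. The rule limited the means at 12, 24 and 72 h but not at 48 h, so part of this order is set by the choice. The control mean was 1396 ± 59.4 CPM (SD, n = 4), and the EGF means were 353 ± 2.81 (12 h), 513 ± 57 (24 h), 951 ± 18.3 (48 h) and 541 ± 23.2 (72 h). In bulk RNA, fewer cells with a transcript and less of it per cell cannot be told apart.

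**Figure D1:**
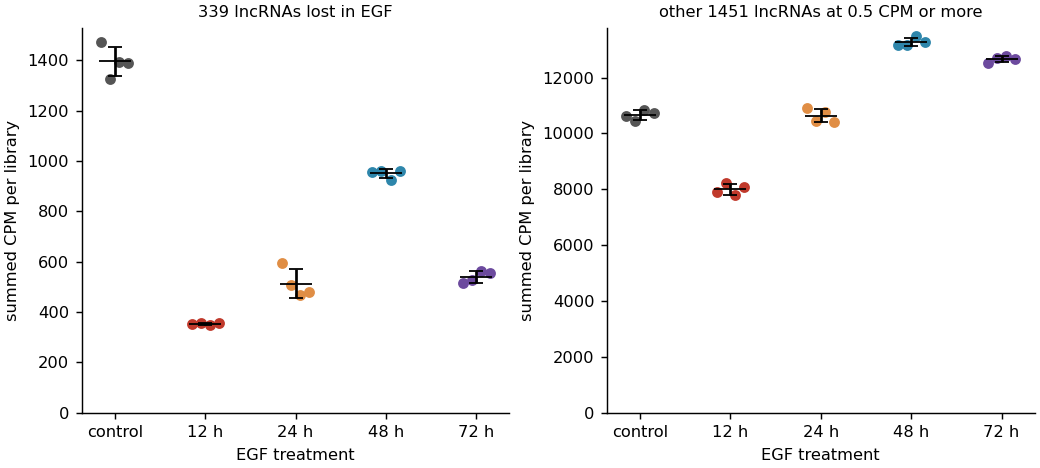
Summed CPM per library of the 339 lncRNAs lost in EGF (left) and of the other 1451 lncRNAs at 0.5 CPM or more in the control (right), for the control and 4 EGF-treatments. Points are libraries, bars are the mean and SD of 4. The left panel averaged 1396 CPM without EGF and 353 CPM after 12 h, and the right panel 10659 and 7996 CPM.

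The median ratio to the control mean was 0.193 (12 h), 0.345 (24 h), 0.702 (48 h) and 0.393 (72 h). The lowest EGF mean fell at 12 h for 244 members, at 24 h for 57, at 72 h for 36 and at 48 h for 2. For 303 members the highest EGF mean was that at 48 h, the time the rule did not limit, so the choice favors this count. In 247 members all 12 libraries of 12, 24 and 72 h lay below all 4 controls, and in the other 92 at least 1 of those libraries reached the lowest control. Low means at these times were a condition of selection, so part of this separation is set by the choice. Its share among other genes was not counted. LncRNAs as a class also moved. The other 1451 had median ratios of 0.489, 0.88, 1.23 and 1.04 at 12, 24, 48 and 72 h. These ratios use library totals, and with that scaling the median log2 fold change of all tested genes was -0.34 at 12 h. With TMM normalization it was -0.05 for all tested genes and -0.74 for the other lncRNAs. The share of all counts in lncRNAs averaged 1.27% without EGF and 0.876%, 1.19%, 1.53% and 1.47% after the 4 treatments. Mitochondrial genes held a mean of 10.9%, 9.43%, 12.4%, 12.5% and 15.1% of counts in the same order, and their part in the result was not tested.

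**Figure D2:**
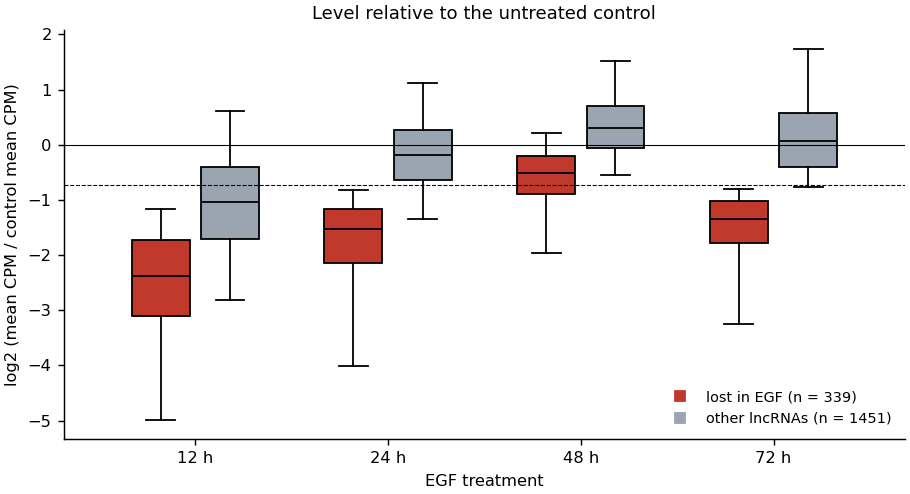
Log2 ratio of the group mean CPM to the control mean for the 339 lncRNAs lost in EGF (red) and the other 1451 lncRNAs at the floor (grey). Boxes are quartiles with the median, whiskers the 5th and 95th percentiles, the dashed line is the limit of 0.6, and ratios under 1/64 are drawn at that value. The limit was applied at 12, 24 and 72 h but not at 48 h, where the red median was 0.702 and the grey 1.23.

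The rule has sharp limits. Just inside the ratio limit were AC007996.1, Z97989.1 and AP001057.1, whose largest ratios were 0.599, 0.598 and 0.597, and just outside were POT1-AS1, AC095055.1 and AP002360.1 with 0.6001, 0.6002 and 0.6002. At the floor, LINC01004, AC008567.3 and CEBPA-DT were kept at 0.501, 0.503 and 0.506 CPM, and AC009163.7, STIM2-AS1 and AC096711.2 were left out at 0.498, 0.494 and 0.490 CPM. With CPM after TMM normalization, 266 of the 339 met the rule. Control levels were low for most, with 114 members between 0.5 and 1 CPM, 165 between 1 and 5, 45 between 5 and 20 and 15 at 20 CPM or more.

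A few members rest on a single control library. AL049555.1 had 9.95 CPM in control replicate 1 and no count in the other 19 libraries. AC005261.3 had 5.17 CPM, and CU638689.1 and AC005034.3 each 2.23 CPM, in the same control library and none in the other 3. Without its highest control library, the control mean of 31 members was below the floor. Without control replicate 1 the rule found 329 lncRNAs, 297 of them among the 339.

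The member with the highest control CPM, a scale not corrected for transcript length, was DANCR (differentiation antagonizing non-protein coding RNA, chr4:52712404-52720351, plus strand), first described as a brake on epidermal differentiation. Its levels were 108, 92.2, 109 and 109 CPM in the controls and 41.3, 43.2, 40.4 and 40.3 CPM at 12 h. They were 45.6, 40.1, 33 and 41.2 CPM at 24 h, 50.1, 54.6, 51.2 and 50.7 CPM at 48 h, and 28.9, 27.6, 30.5 and 30.2 CPM at 72 h. Every EGF library was below every control, and the 48 h libraries were above those of the other EGF-treatments. CHASERR, an RNA known to hold down the chromatin remodeler gene CHD2 downstream of it (chr15:92882707-92899701, plus strand), had 73.7, 53.6, 78.2 and 71 CPM in the controls. At 12 h it had 26.7, 25.9, 27.7 and 25.3 CPM and at 24 h 45.9, 38, 32 and 37.2 CPM. It had 51.3, 43.6, 62.4 and 59.9 CPM at 48 h and 32.3, 35.1, 39.6 and 38.9 CPM at 72 h. The 48 h libraries overlapped the controls, which those of 12, 24 and 72 h did not. PCCA-DT, which starts 167 bp from the gene of a propionyl-CoA carboxylase subunit, PCCA, and runs away from it (chr13:100086031-100088848, minus strand), had 36.8, 35.4, 32.9 and 35.4 CPM in the controls. It had 13.7, 12.4, 13.2 and 12.7 CPM at 12 h, 13, 11, 9.31 and 11.3 CPM at 24 h, 18.4, 19.1, 17.7 and 17.7 CPM at 48 h, and 15.6, 13.4, 14.9 and 17.4 CPM at 72 h. No EGF library overlapped the controls.

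The promoters of these 3 lncRNAs are shown because they are the RefSeq start sites of the members just described and hold 3 or 4 copies of the GC box. Their GC content of 67.7% (DANCR), 75.3% (CHASERR) and 71% (PCCA-DT) is above the median of the members given below. The window of another member, MIR99AHG (chr21:16535322-16535621, plus strand), has 37.3% and no GC box. It lies inside the gene as GENCODE 29 places it (chr21:15928296-16645065) and not at the start of that gene. The CHASERR window also lies inside its gene as GENCODE 29 places it (chr15:92882707-92899701), downstream of the start given there. Each window runs from 250 bases before to 50 bases after the RefSeq start (GRCh38.p14). The 3 sequences are given 5′ to 3′ on the strand of the lncRNA, with the GC box GGGCGG or its complement CCGCCC in capitals. The windows lie at chr4:52712144-52712443 (plus strand) for DANCR, chr15:92883046-92883345 (plus strand) for CHASERR and chr13:100088894-100089193 (minus strand) for PCCA-DT.
DANCR: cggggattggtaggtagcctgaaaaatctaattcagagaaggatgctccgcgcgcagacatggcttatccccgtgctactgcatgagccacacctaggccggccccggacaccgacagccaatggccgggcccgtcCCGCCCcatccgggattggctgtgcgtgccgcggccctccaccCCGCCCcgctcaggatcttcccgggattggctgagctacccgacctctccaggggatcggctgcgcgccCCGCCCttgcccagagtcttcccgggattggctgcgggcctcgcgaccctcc
CHASERR: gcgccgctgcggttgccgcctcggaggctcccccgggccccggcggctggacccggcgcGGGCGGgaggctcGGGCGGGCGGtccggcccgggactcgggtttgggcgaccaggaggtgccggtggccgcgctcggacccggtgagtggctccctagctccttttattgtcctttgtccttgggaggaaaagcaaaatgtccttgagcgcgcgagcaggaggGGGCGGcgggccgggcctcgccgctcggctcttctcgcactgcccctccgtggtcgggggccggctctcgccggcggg
PCCA-DT: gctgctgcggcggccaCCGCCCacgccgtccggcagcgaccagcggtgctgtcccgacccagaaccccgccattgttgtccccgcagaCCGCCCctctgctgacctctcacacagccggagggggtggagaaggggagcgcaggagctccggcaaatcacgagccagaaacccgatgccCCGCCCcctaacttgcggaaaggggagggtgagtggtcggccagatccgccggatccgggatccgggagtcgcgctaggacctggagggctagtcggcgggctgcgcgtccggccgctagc

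RefSeq held such a window for 102 of the 339 members. The GC box, counted on both strands, was in 58 of them (56.9%) and in 45% of all 35116 windows. The AP-1 motif TGANTCA, read by factors that EGF signaling activates, was in 8 (7.84%) against 7.71% of all windows, and the E-box CACGTG in 7 (6.86%) against 7.26%. The TATA motif TATAAA was in 8 (7.84%) against 11.5%. The median GC content was 61.3% in the members' windows and 58.7% in all. A match to a motif is a description of the sequence and not a site of binding.

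The other members with a high control CPM were mostly clone-named. AC008771.1, antisense to FAM151B, had 37.7, 31.1, 36.7 and 37.1 CPM in the controls and 2.35, 1.91, 1.34 and 1.83 CPM at 12 h. It had 12.1, 9.04, 9.55 and 8.73 CPM at 24 h, 21.7, 17.9, 25.2 and 24 CPM at 48 h, and 11.8, 15.7, 13.8 and 13.8 CPM at 72 h. The groups at 12 and 48 h overlapped neither each other nor the control. AP001636.3, antisense to the glycine acyltransferase-like gene GLYATL1, had 19.5, 25.7, 27 and 26.2 CPM in the controls and 0.914, 1.17, 0.811 and 0.725 CPM at 12 h. It had 3.49, 2.49, 2.79 and 2.29 CPM at 24 h, 6.72, 6.08, 5.23 and 6.23 CPM at 48 h, and 2.59, 2.81, 2.92 and 3.01 CPM at 72 h. All of its EGF libraries stayed below all controls, with a 48 h mean of 0.247 times the control. C5orf38, which starts 469 bp from the homeobox gene IRX2 in the opposite direction, had 30.7, 39.3, 27.8 and 33.1 CPM in the controls and 27.7, 29.6, 20.5 and 21.5 CPM at 48 h, which overlap, against 8.83 to 9.83 CPM at 12 h. The remaining 6 of the 12 highest were AC245041.2, AC004870.2, LINC01833, AC016747.1, AC093157.1 and AC008556.1, with control means of 23.4 to 32.9 CPM. Among these, AC016747.1 stood at a mean of 4.93 CPM at 12 h and at 23.5 CPM at 48 h, whereas AC008556.1 stayed at 11.8, 13.4 and 12.4 CPM at 12, 24 and 48 h and was lowest at 72 h with 7.6 CPM.

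**Figure D3:**
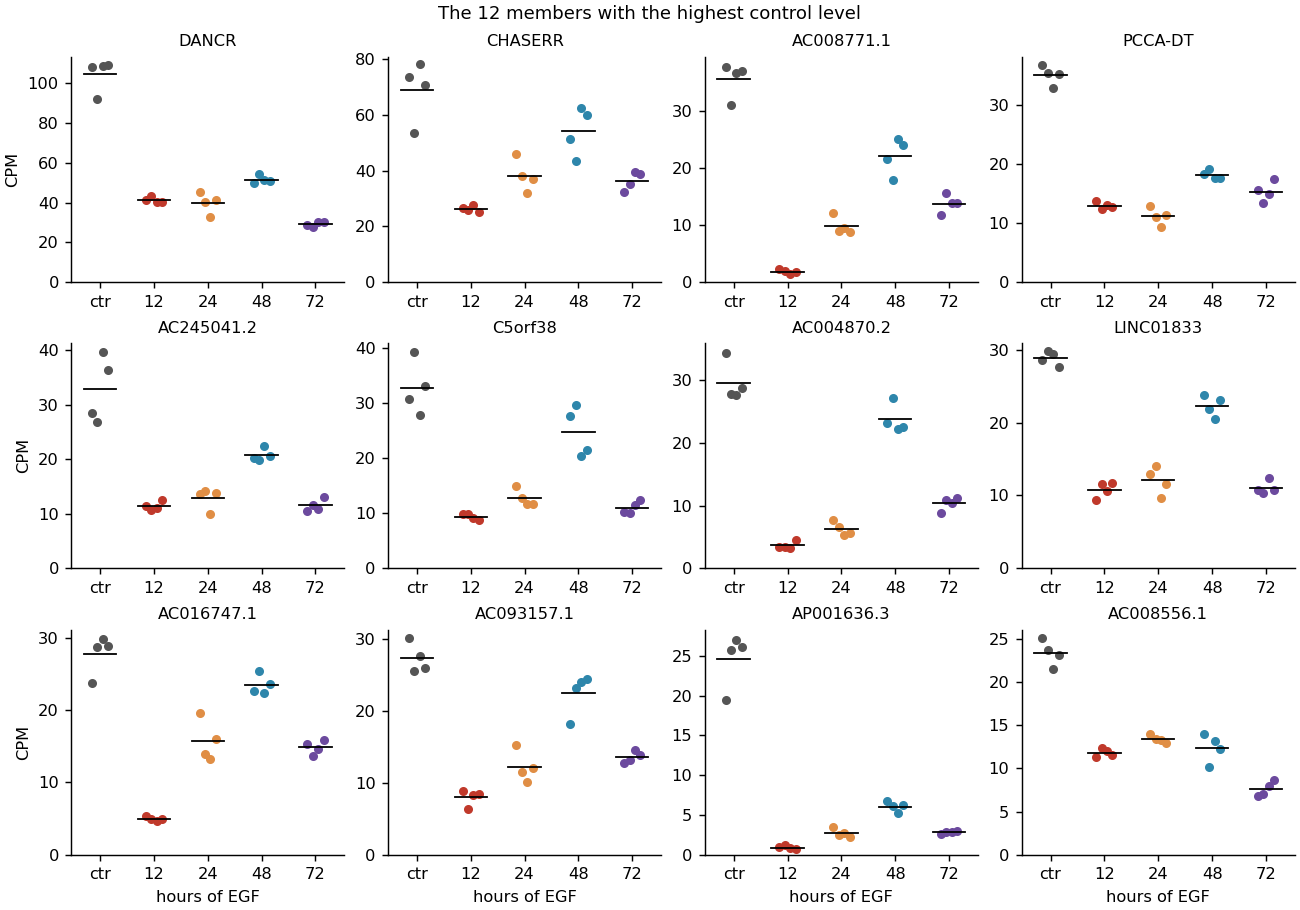
CPM in each library for the 12 members with the highest control mean, by hours of EGF-treatment (ctr, untreated). Points are libraries and lines the mean of 4. AP001636.3 stayed at 6.07 CPM at 48 h against 24.6 CPM in the control, whereas AC016747.1 was at 23.5 CPM against 27.8 CPM.

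The 48 h libraries were not used to choose the members. The comparison shares its control libraries with the rule, which favors members whose control values happened to be high, so part of a lower level at 48 h can come from the choice, and its size was not tested. Of the 339 lncRNAs, 313 passed edgeR's filter on low counts. In edgeR (quasi-likelihood test, adjusted by Benjamini-Hochberg across 16522 genes, threshold 0.05), 130 of the 313 (41.5%) were lower at 48 h than in the control, 2 (0.639%) were higher and 181 did not pass. Of all genes tested, 21.8% were lower and 24% higher. In 121 members all 4 libraries at 48 h lay below all 4 controls, and in 2 above, against 15.3% and 19.6% of all genes. The median log2 fold change was -0.49 in the members and 0.01 over all genes. Among the other lncRNAs at the floor, 1449 were tested, of which 71 (4.9%) were lower and 486 (33.5%) higher, with a median of 0.29. These were left out by the same rule on the same controls, so part of their difference from the members is set by the choice. Of all 2403 lncRNAs tested, members included, 202 (8.41%) were lower and 846 (35.2%) higher, with a median of 0.35. Restricted to the 144 tested members whose exons overlap no exon of another gene, 67 (46.5%) were lower and 1 higher.

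**Figure D4:**
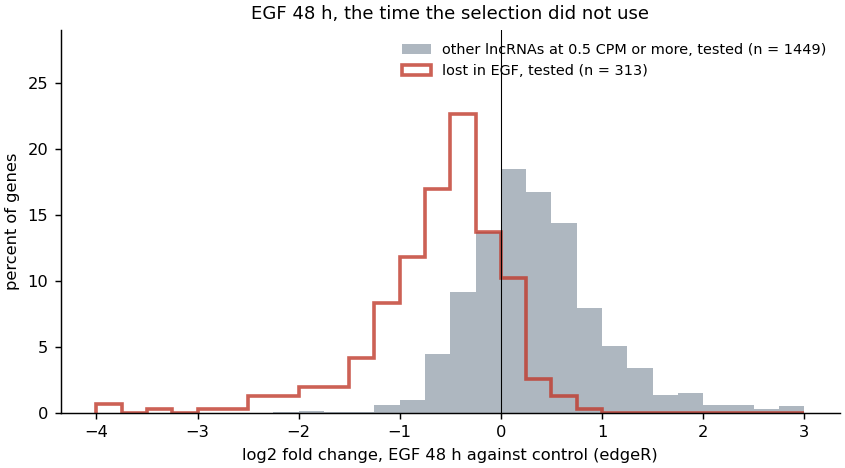
Distribution of the edgeR log2 fold change at 48 h of EGF-treatment against control for 313 tested members (red outline) and 1449 other tested lncRNAs with at least 0.5 CPM in the control (grey), as a percent of each set per bin. Values beyond -4 or 3 are drawn in the end bins. The members have a median of -0.49 and the others of 0.29. The rule that parted these sets used the same controls, so part of the difference is set by the choice.

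DANCR was still lower at 48 h (log2 fold change -1.03 ± 0.08 SE, edgeR adjusted p = 1.24e-10), as was PCCA-DT (-0.96 ± 0.09, edgeR adjusted p = 4.55e-09). AC008771.1 (-0.69, edgeR adjusted p = 2.76e-05), AC008556.1 (-0.93, edgeR adjusted p = 7.62e-09), AC245041.2 (-0.67, edgeR adjusted p = 5.31e-05), C5orf38 (-0.41, edgeR adjusted p = 0.00602) and LINC01833 (-0.39, edgeR adjusted p = 0.00131) were lower too. AP001636.3 had the largest difference of the 12 (-2.04 ± 0.13, edgeR adjusted p = 3.54e-12). The remaining members of the 12 were close to the threshold, and their calls depended on single libraries and on processing. CHASERR had -0.36 ± 0.11 (edgeR adjusted p = 0.0122), which became 0.0509 without control replicate 3 and 0.0542 without 48 h replicate 2, and 0.0584 with only the compared groups in the fit. AC004870.2 had -0.33 (edgeR adjusted p = 0.017), which became 0.075 without control replicate 1 and 0.0525 without 48 h replicate 3. AC093157.1 (-0.29, edgeR adjusted p = 0.0361) was lost without control replicate 1 (0.103) or 3 (0.0617) or 48 h replicate 1 (0.157), with only the compared groups (0.0617) and with at least 10 counts in every library (0.0645). AC016747.1 (-0.26, edgeR adjusted p = 0.0397) was lost without control replicates 2 (0.0649), 3 (0.104) or 4 (0.0907), or without 48 h replicates 1 (0.0995), 3 (0.1) or 4 (0.0634). It was also lost with upper quartile scaling (0.0684), with genes of at least 1 count (0.0631) or 10 counts in every library (0.0768), and with only the compared groups (0.0759).

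Both members called higher at 48 h were chosen for mention after their values were seen or by rank. SEPTIN7-DT, divergent from the septin gene SEPTIN7, had 1.14, 0.632, 0.767 and 0.717 CPM in the controls. It had 0.131, 0.0489, 0 and 0.0853 CPM at 12 h, 0.295, 0.433, 0.620 and 0.280 CPM at 24 h, 1.39, 0.979, 1.87 and 1.46 CPM at 48 h, and 0.541, 0.401, 0.350 and 0.512 CPM at 72 h. Thus 3 of its 4 libraries at 48 h exceeded all controls (log2 fold change 0.81 ± 0.3 SE, edgeR adjusted p = 0.0298), and the call was lost without control replicates 2 (0.0811), 3 (0.0628) or 4 (0.0734) and without 48 h replicates 3 (0.117) or 4 (0.0581), with genes of at least 1 count (0.0663) and with DESeq2 (0.0586). AL354920.1, antisense to the ubiquilin gene UBQLN1, had 3.32, 2.8, 4.51 and 2.41 CPM in the controls, 0.348, 0.391, 0.429 and 0.213 CPM at 12 h and 4.05, 4.48, 5.85 and 4.29 CPM at 48 h. These groups overlap between control and 48 h (0.51 ± 0.2, edgeR adjusted p = 0.0452), and the call was lost without any 1 of 9 libraries: control replicates 1 (0.0759), 2 (0.104) or 4 (0.151), 48 h replicates 2 (0.0631), 3 (0.162) or 4 (0.0523), 12 h replicate 1 (0.05), 24 h replicate 4 (0.0511) or 72 h replicate 2 (0.0502). It was also lost with genes of at least 1 count (0.0615), only the compared groups (0.0801) and DESeq2 (0.0819). AC091978.1, AC132938.3 and LINC01277, which with AL354920.1 had the highest 48 h ratios among members of at least 1 CPM in the control (1.37, 1.35 and 1.34), did not pass the test against the control.

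For several members with a known role, the 48 h libraries overlapped the controls. HOXA-AS2, an antisense RNA of the HOXA cluster of developmental regulators, had 13.3, 11.8, 11.1 and 12.5 CPM in the controls, 2.26, 3.03, 2.38 and 2.26 CPM at 12 h and 3.88, 3.41, 3.23 and 3.78 CPM at 24 h. It had 12.3, 13.8, 10.7 and 12.2 CPM at 48 h and 7.12, 5.22, 6.71 and 5.19 CPM at 72 h. The 48 h libraries spanned the controls, with means of 12.2 CPM in both, and no other EGF library reached them. TP53TG1, an RNA first found as a target of p53, had 10.6, 10.6, 8.85 and 9.63 CPM in the controls, 1.74, 2.15, 1.86 and 1.92 CPM at 12 h, and 9.44, 9.74, 8.01 and 9.64 CPM at 48 h. At 24 h TP53TG1 had 3.1, 2.33, 2.67 and 1.49 CPM and at 72 h 4.29, 3.44, 4.78 and 3.65 CPM. Its 48 h libraries overlapped the controls (log2 fold change -0.12 ± 0.13 SE, edgeR adjusted p = 0.508), but 32.6% of its exon bases overlap exons on the opposite strand. SNAI3-AS1, antisense to a gene of the Snail family of EMT transcription factors, had means of 4.87 CPM in the control, 0.682 after 12 h, 2.05 (24 h), 4.26 (48 h) and 1.65 (72 h), with -0.21 ± 0.2 at 48 h (edgeR adjusted p = 0.425). CASC2, described as a tumor suppressor RNA, had means of 2.14, 0.193, 0.483, 1.8 and 0.834 CPM in the same order, with a wide range of 0.954 to 2.92 CPM at 48 h (edgeR adjusted p = 0.495).

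Other members with a known role stayed lower at 48 h. NRAV, a negative regulator of antiviral genes, had 12.3, 14.1, 11.2 and 13.6 CPM in the controls, 3.66, 3.18, 3.53 and 3.2 CPM at 12 h and 10.7, 11.1, 5.85 and 8.13 CPM at 48 h, with none of these 48 h libraries reaching the lowest control (-0.53 ± 0.15, edgeR adjusted p = 0.00473). NRAV had means of 5.7 CPM at 24 h and 5.34 CPM at 72 h. BDNF-AS, which represses the neurotrophin gene BDNF on the other strand, had 4.02, 5.28, 4.65 and 4.82 CPM in the controls and 0.392, 0.342, 0.286 and 0.384 CPM at 12 h. It had 0.688, 0.325, 0.558 and 0.374 CPM at 24 h, 2.3, 3.25, 2.45 and 3.6 CPM at 48 h and 1.32, 1.43, 1.75 and 0.897 CPM at 72 h, so all EGF libraries were below the controls (-0.7 ± 0.19 at 48 h, edgeR adjusted p = 0.00349). CEBPA-DT, divergent from the gene of the differentiation factor C/EBP alpha, was at the floor with a control mean of 0.506 ± 0.14 CPM (SD, n = 4) and had 0.182, 0, 0.208 and 0 CPM at 48 h. It did not pass the filter on low counts.

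Some members are hosts of microRNAs, which act by pairing of their seed (bases 2 to 8) with target mRNAs. The libraries measured the host transcripts and not the mature microRNAs. The mature sequences inside 3 of the hosts are shown because these data speak to them only through host transcripts. They were taken from RefSeq (GRCh38.p14) and run 5′ to 3′ with the seed in capitals. MiR-99a and let-7c lie in introns of MIR99AHG (chr21:15928296-16645065, plus strand), miR-9 in an intron of MIR9-3HG (chr15:89361579-89398487, plus strand) and miR-4449 in an intron of DANCR.
hsa-miR-99a-5p: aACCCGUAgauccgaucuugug
hsa-let-7c-5p: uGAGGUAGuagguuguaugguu
hsa-miR-9-5p: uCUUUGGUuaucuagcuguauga
hsa-miR-4449: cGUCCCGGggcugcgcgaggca
These seeds differ from one another. MIR99AHG, the host with the let-7c seed GAGGUAG, had 6.8, 5.64, 7.63 and 7.53 CPM in the controls, 0.740, 0.929, 0.858 and 0.682 CPM at 12 h and 1.18, 1.73, 1.43 and 0.934 CPM at 24 h. It had 2.06, 2.01, 1.66 and 1.36 CPM at 48 h and 1.43, 1.15, 1.11 and 0.897 CPM at 72 h. All EGF libraries were far below the controls, and it was lower at 48 h (-1.98 ± 0.18, edgeR adjusted p = 4.27e-09). MIR9-3HG had 6.25, 7, 6.09 and 5.18 CPM in the controls, 0.479, 0.489, 0.620 and 0.981 CPM at 12 h, 2.31, 1.68, 1.99 and 1.82 CPM at 24 h, 3.93, 3.97, 3.2 and 3.85 CPM at 48 h, and 1.86, 1.78, 2.22 and 1.35 CPM at 72 h. Its groups at 12, 48 h and control did not overlap (-0.73 ± 0.16 at 48 h, edgeR adjusted p = 0.000666). MIR9-1HG, named as a host of another miR-9 gene, is not a member and went the other way. Its ratios to the control mean were 2.27, 2.58, 3.52 and 3.29 at 12, 24, 48 and 72 h. MIR1915HG, whose intron holds miR-1915, varied little among replicates, with 16.8, 16.9, 17.6 and 16.8 CPM in the controls and 9.08, 8.71, 9.17 and 9.45 CPM at 48 h (-0.91 ± 0.08, edgeR adjusted p = 3.64e-09). MIR600HG, where miR-600 lies in the exon, had means of 1.22, 0.688, 0.566, 0.925 and 0.672 CPM from control to 72 h and did not pass at 48 h (-0.41 ± 0.3, edgeR adjusted p = 0.282).

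The lowest EGF levels relative to the control, among members of at least 1 CPM, belonged to AL049555.1, AL355538.1, AP002761.4, LINC02159, LINC00458 and AP001207.3, of which AL049555.1 rests on 1 library as given above. LINC00458, known from pluripotent stem cells, had 2.99, 2.62, 2.26 and 2.41 CPM in the controls and between 0 and 0.390 CPM in all 16 EGF libraries. It had the largest difference at 48 h of the named members that passed the test, with a log2 fold change of -3.28 ± 0.42 SE (edgeR adjusted p = 8.38e-07). LINC01671 had 4.13, 3.61, 2.44 and 4.82 CPM in the controls and 0.847, 0.670, 0.249 and 0.438 CPM at 48 h, with no overlap (-2.8 ± 0.32, edgeR adjusted p = 1.68e-07). AL355538.1 (-2.58 ± 0.46, edgeR adjusted p = 6.67e-05) and AP001207.3, antisense to the epithelial transcription factor gene GRHL2 (-2.31 ± 0.45, edgeR adjusted p = 0.00017), were lower as well. LINC02159 had no count in any 12 h library and 0.545, 0.670, 0.581 and 0.390 CPM at 48 h against 2.28, 1.67, 0.722 and 1.28 CPM in the controls (-1.43, edgeR adjusted p = 0.0107), a call lost without control replicate 1 (0.0556). AP002761.4 had 6.96, 2.89, 4.38 and 3.54 CPM in the controls and was listed at 0 in 13 of the 16 EGF libraries, so no fold change is given. It did not pass at 48 h (edgeR adjusted p = 0.091) except with only the compared groups (adjusted p = 0.0363).

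Among the EGF-treatments the members followed different courses, given here without tests because 12, 24 and 72 h were read by the rule. In 143 of the 339, all 4 libraries at 48 h exceeded all 12 libraries of 12, 24 and 72 h, and since low values at those times were a condition of selection, part of this count is set by the choice. BDNF-AS, TP53TG1, AC004870.2 and HOXA-AS2 were among the members with this separation. AC008556.1, LINC00458 and MIR600HG were not, and their 48 h libraries overlapped those of 24 h. AC008771.1 had mean ratios to the control of 0.0521, 0.276 and 0.386 after 12, 24 and 72 h. DANCR went the other way, with 0.395 and 0.382 at 12 and 24 h and 0.280 at 72 h, where its 4 libraries were below all others.

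The protein-coding genes next to the members were not used by the rule. The nearest genes of the 311 placed members were 299 distinct genes, of which 268 were tested. By edgeR, 111 of them (41.4%) were lower and 90 (33.6%) higher at 12 h, against 36.5% and 32.9% of all genes. At 24 h 111 (41.4%) were lower and 70 (26.1%) higher, against 29.6% and 29.2%. At 48 h 101 (37.7%) were lower and 36 (13.4%) higher, with 21.8% and 24% for all genes. At 72 h 122 (45.5%) were lower and 60 (22.4%) higher, against 31% and 30.6%. These 4 comparisons share the control libraries with each other and with the rule. The neighbors are all protein-coding, whereas all genes, here and below, include 2403 tested lncRNAs. Of these lncRNAs, 51.5%, 25.1%, 8.41% and 19.1% were lower at 12, 24, 48 and 72 h. In the same order 11.5%, 23.9%, 35.2% and 35.1% were higher. The median log2 fold changes of the neighbors were small, at -0.1, -0.12, -0.15 and -0.2. Across 258 pairs, the log2 fold changes of member and neighbor had a Pearson r of 0.058 and a Spearman rho of 0.01 at 12 h, and 0.012 and 0.12 at 48 h, a description across genes that share the same libraries. The rule capped the members' levels at 12 h, which narrows their spread, and it used the same controls as the 48 h values. Part of these low correlations can come from the choice, so they cannot show whether member and neighbor move together.

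By arrangement, the 36 divergent partners counted 15 lower and 8 higher at 12 h, 18 and 3 at 24 h, 16 and 1 at 48 h and 22 and 5 at 72 h. The 29 partners overlapped on the same strand counted 13 lower and 7 higher, 15 and 4, 10 and 1, and 17 and 1 in the same order. The 87 partners lying apart counted 38 and 31, 37 and 23, 41 and 13, and 41 and 24, and the 117 partners overlapped by an antisense member 46 and 44, 41 and 40, 35 and 21, and 43 and 30. In all 4 arrangements lower calls outnumbered higher ones at each time, as among all genes at 12, 24 and 72 h. At 12 h 39.3% to 44.8% of an arrangement were lower and 22.2% to 37.6% higher, against 36.5% and 32.9% of all genes. At 24 h the ranges were 35% to 51.7% and 8.33% to 34.2%, against 29.6% and 29.2%. At 48 h they were 29.9% to 47.1% and 2.78% to 17.9%, against 21.8% and 24%. At 72 h they were 36.8% to 61.1% and 3.45% to 27.6%, against 31% and 30.6%. The difference between arrangements was not tested. CROT, a peroxisomal carnitine acyltransferase and the divergent partner of TP53TG1, had means of 9.71 CPM in the control, 1.4 after 12 h, 2.71 (24 h), 6.34 (48 h) and 3.35 (72 h). It was lower at each time by edgeR, by log2 fold changes of -2.51 (adjusted p = 2.39e-11), -1.69 (adjusted p = 1.23e-08), -0.63 (adjusted p = 0.00249) and -1.47 (adjusted p = 7.98e-08). CEBPA, the partner of CEBPA-DT, had means of 9.1, 2.35, 1.72, 3.2 and 1.75 CPM from control to 72 h and was also lower at each time by edgeR, with its smallest difference at 48 h (-1.53, adjusted p = 7.29e-08). PCCA had means of 20, 7.84, 8.71, 15.6 and 12.4 CPM and log2 fold changes of -1.06 at 12 h (edgeR adjusted p = 2.09e-08) and -0.37 at 48 h (edgeR adjusted p = 0.00933), the latter lost without control replicate 1 (0.0638) or with only the compared groups (0.0682). IRX2, next to C5orf38, was lowest at 72 h with 20.9 ± 1.19 CPM against 54.4 ± 12.7 in the control (-1.31, edgeR adjusted p = 2.53e-09), and its difference at 12 h (-0.34, edgeR adjusted p = 0.0133) was lost without control replicate 3 (0.115). C2orf74, the partner of AC016747.1, was lower at 12 h (-1.79, edgeR adjusted p = 3.48e-10) and 24 h (-0.68, edgeR adjusted p = 0.000281) and did not pass at 48 h (0.18, edgeR adjusted p = 0.296), a call gained without control replicate 3 (0.38, adjusted p = 0.0115), or at 72 h (0.04, edgeR adjusted p = 0.828).

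CHD2 is not the nearest protein-coding gene of CHASERR in GENCODE 29, which places AC013394.1 across it, and was looked at because it is the known target of CHASERR. CHD2 had means of 32.2 ± 2.36, 42.7 ± 2.82, 35.7 ± 1.85, 33.3 ± 0.921 and 33.6 ± 1.76 CPM (SD, n = 4) from control to 72 h. It was higher at 12 h (0.69 ± 0.07, edgeR adjusted p = 3.86e-09), where CHASERR had its lowest level, and at 24 h (0.29 ± 0.07, edgeR adjusted p = 0.000865), which was lost when libraries were scaled by size alone (0.15, adjusted p = 0.0775). It did not pass at 48 h (0.04, edgeR adjusted p = 0.682) or at 72 h (0.13, edgeR adjusted p = 0.0971), where it passed without control replicate 4 (0.18, adjusted p = 0.0418) and with at least 10 counts in every library (0.19, adjusted p = 0.0193). At 72 h CHASERR was at 36.5 CPM, close to its 38.3 CPM at 24 h. Of all genes tested, 32.9% were higher at 12 h and 29.2% at 24 h. A link between the levels of CHASERR and CHD2 was not tested.

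**Figure D5:**
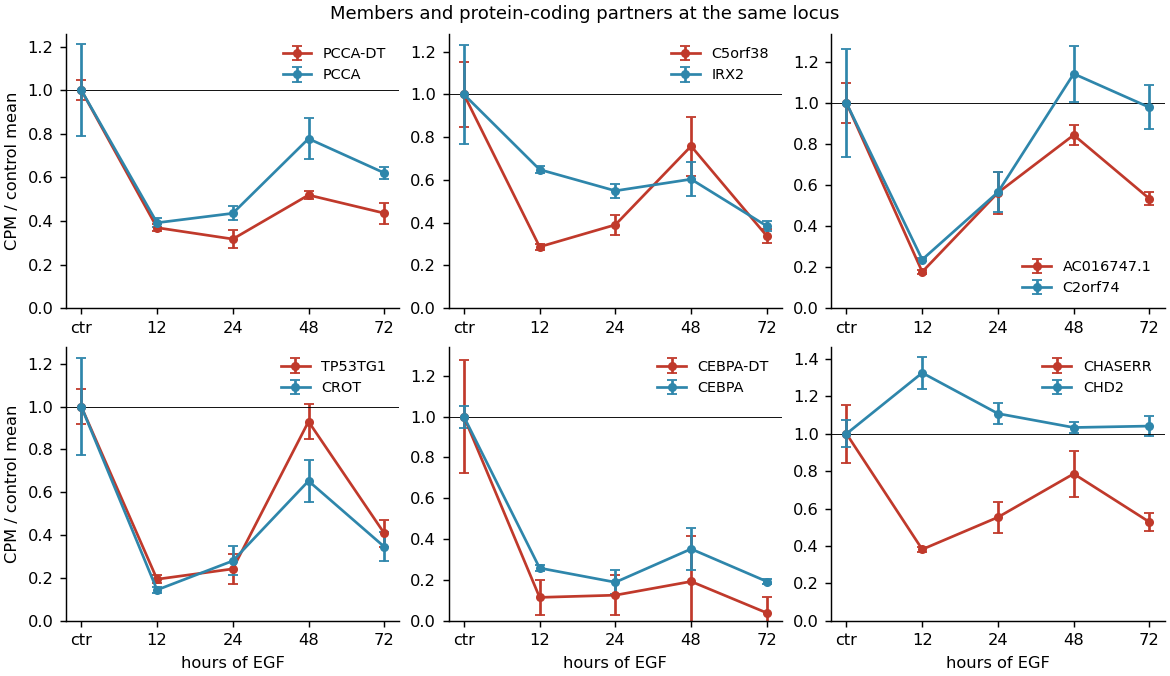
Mean CPM relative to the control mean for 6 members (red) and a protein-coding gene at the same locus (blue), by hours of EGF-treatment (ctr, untreated), with SD of 4 libraries. The first 5 pairs are divergent, and in these both genes are below the control at 12 h. They are examples and do not stand for all 36 divergent partners tested, of which 15 were lower and 8 higher at 12 h by edgeR. In the last pair CHD2 is at 42.7 CPM at 12 h against 32.2 CPM in the control, while CHASERR is at 26.4 against 69.1 CPM.

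The nuclear exosome with its adaptor complexes NEXT and PAXT, the cap-binding factors and the exonuclease XRN2 remove many noncoding RNAs, and 25 genes of this machinery were all tested. At 12 h 16 of them (64%) were higher and 3 (12%) lower by edgeR, against 32.9% and 36.5% of all genes. At 24 h 6 (24%) were higher and 2 (8%) lower, against 29.2% and 29.6%. At 48 h 2 (8%) were higher and 9 (36%) lower, against 24% and 21.8%, and at 72 h 3 (12%) and 8 (32%), against 30.6% and 31%. The split at 12 h depends on scaling, since with library size alone 5 were higher and 8 lower. The largest differences at 12 h were those of the exosome subunit EXOSC4 (1.02 ± 0.16, edgeR adjusted p = 6.17e-06), the exosome nuclease DIS3 (0.99 ± 0.11, edgeR adjusted p = 1.14e-08) and the exosome subunit EXOSC2 (0.78 ± 0.08, edgeR adjusted p = 1.08e-08). DIS3 had means of 60 ± 7.65 CPM in the control, 98.1 ± 7.46 after 12 h, 91.7 ± 6.91 (24 h), 64.7 ± 10.5 (48 h) and 107 ± 8.88 (72 h). It was higher at 24 h (0.76, edgeR adjusted p = 1.42e-06) and 72 h (0.91, edgeR adjusted p = 6.61e-08) and did not pass at 48 h (0.1, edgeR adjusted p = 0.48). EXOSC4 did not pass after 12 h, with 0.25, -0.26 and 0.23 at 24, 48 and 72 h. Whether these levels have a part in the loss of the lncRNAs was not tested.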

How the data were processed

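RNA of 20 libraries (RNeasy, Lexogen Corall mRNA protocol, Illumina NS500, single-end) was compared. The authors deposited, for 60271 genes, estimated counts in whole numbers. They also deposited normalized values from DESeq2 within SARTools, taken here as a score because the scaling factor was not the same for all genes. The submitters' processing notes name hg38 and DESeq2. The aligner, the annotation, and the handling of strand and of molecular identifiers are not given in the sources used here, so counts may hold PCR duplicates. The deposited fold changes and p-values, and the 9 tables that repeat the counts, were not used. The deposited normalized values served for 1 alternative selection.

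The members and all lists were chosen with earlier results of these data known. Members were selected on CPM from library totals in Python 3.11.15 with pandas 2.3.3. The deposited counts were tested in R 4.3.3 with edgeR 4.0.16 (filterByExpr, TMM, robust quasi-likelihood fit, prior count 0.125), with 1 mean per group over 20 libraries and adjustment over 16522 genes, and with DESeq2 1.42.0 as an alternative. The procedure was tested on simulated data. Named were the 12 members with the highest control CPM, 6 with the lowest ratio, 4 at each end at 48 h, 3 at each side of each limit, members with a textbook role, and their neighbors. SEPTIN7-DT was added after its values were seen. Planned tests of members between EGF times were dropped, because the rule had used those levels. Replicates differed by more than sampling noise, with a variance 3.53 to 57.5 times that of counting over 30 pairs. Replicate numbers did not pair the samples, since deviations of same-numbered libraries had a median r of 0.0268 and exceeded 0.1 in 8 of 40 pairs. The 48 h and control libraries give p-values for cultures of 1 line. Promoters and microRNAs were taken from RefSeq. Alternatives were other scalings, filters, tests and limits, a replicate block, and each library left out in turn.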

Additional observations from a re-analysis of the deposited data

Results flagged for a closer look

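In 19 of 176 groups of 4 libraries checked, the highest or lowest library lay far from the other 3 by Dixon's criterion at the 95% level, under which chance gives about 1 of 20 groups with normally distributed values. In 7 of the 19 the other 3 libraries were at 0, where any count meets the criterion. Control replicate 2 was low for DANCR (92.2 CPM, others 108 to 109) and AC008771.1 (31.1 CPM, others 36.7 to 37.7). Control replicate 1 was high for AC004870.2 (34.3 CPM, others 27.6 to 28.7), AL049555.1 (9.95 CPM, others 0) and AC005261.3 (5.17 CPM, others 0), and low for AP001636.3 (19.5 CPM, others 25.7 to 27). Control replicate 3 was high for MIR1915HG (17.6 CPM, others 16.8 to 16.9). At 12 h, replicate 4 was high for AC004870.2 (4.56 CPM, others 3.29 to 3.47) and AL355538.1 (0.0853 CPM, others 0), replicate 1 for AP002761.4 (1.22 CPM, others 0) and replicate 2 for HOXA-AS2 (3.03 CPM, others 2.26 to 2.38). At 24 h, replicate 3 was low for AC245041.2 (10.1 CPM, others 13.7 to 14.1), and replicate 1 was high for AC132938.3 (1.08 CPM, others 0.327 to 0.434) and AL355538.1 (0.0491 CPM, others 0), as was replicate 4 for AP001207.3 (0.140 CPM, others 0.0491 to 0.0620). At 48 h, replicate 3 was low for MIR9-3HG (3.2 CPM, others 3.85 to 3.97) and for the summed CPM of all members (924 CPM, others 957 to 962). At 72 h, AC005261.3 was high in replicate 4 (0.897 CPM, others 0) and CEBPA-DT in replicate 1 (0.0774 CPM, others 0).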

How the results depend on the processing

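The number of members was 222 with a ratio limit of 0.5, 225 with a floor of 1 CPM and 293 (268 of them shared) with the deposited normalized values (added once the data had been seen), and 328 to 352 when a library was left out. The 48 h calls in the members (130 lower, 2 higher) became 56 and 0 with at least 10 counts in every library. The higher calls were 1 with only the compared groups and 0 with DESeq2 or with genes of at least 1 count. Leaving out a library gave 112 to 136 lower and 0 to 3 higher. Leaving out the 31 members that rest on their highest control library, likewise added later, gave 130 and 2. The counts did not move because none of the 31 had been called.

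Scaling by library size moved the median of all genes at 12 h to -0.34 and at 24 h to -0.15, and upper quartile scaling moved it to -0.22 at 12 h. Under library size, 53 neighbors were higher at 12 h. The decay genes at 12 h became 8 lower and 5 higher (library size), 7 and 10 (upper quartile) and 6 lower (at least 10 counts). At 24 h they were 6, 4 and 1 lower (library size, upper quartile, DESeq2) and 3 higher (library size, and only the compared groups). At 48 h 1 was higher with only the compared groups, and at 72 h 6 with at least 10 counts. With a library left out, decay genes were 1 to 3 lower at 24 h (1 without control replicate 1 or 4, 12 h replicate 2 or 4, 24 h replicate 1, 2 or 3, or 72 h replicate 4), 1 to 3 higher at 48 h (1 without control replicate 2 or 48 h replicate 3) and 3 to 5 higher at 72 h (5 without control replicate 2).

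HOXA-AS2 at 48 h changed sign around 0 without passing the test, with 0.00937 (library size), 0.02 (upper quartile), 0.0384 (at least 10 counts) and -0.0726 to 0.0677 (a library left out). C2orf74 at 72 h became -0.0352 with library size and -0.0896 to 0.234 with a library left out, CHD2 at 48 h ranged from -0.00569 to 0.0821, and AC005261.3 was 0 without control replicate 1, of a range from -7.97. AC005261.3, which rests on that library, did not pass at 48 h in edgeR (adjusted p = 0.122). It passed with the DESeq2 Wald test (-22, adjusted p = 1.89e-05). The cause of these changes was not tested, apart from the fewer genes or libraries that an alternative leaves. With the replicate number as a block, 126 members were lower and 2 higher at 48 h, and the pairing moved no count of calls past 1.5 times. It changed no call of a named gene. The low counts left 26 members untested.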
